A study of Arabidopsis thaliana with 12 samples.

Results

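The genes described here are 10 heat shock transcription factor genes of Arabidopsis thaliana, chosen by locus: HSFA1A (AT4G17750), HSFA2 (AT2G26150), HSFA3 (AT5G03720), HSFA4A (AT4G18880), HSFA6A (AT5G43840), HSFA6B (AT3G22830), HSFA8 (AT1G67970), HSFB2A (AT5G62020), HSFB2B (AT4G11660) and HSFC1 (AT3G24520). All 10 were found among the 24035 genes listed in at least 1 library, and they are 10 of 21 loci of the heat shock factor family. Poly(A) RNA of whole seedlings, grown upright for 10 days on plates, was sequenced in 12 libraries. They form 4 groups of 3: wild type (WT) control, WT after 6 h of dehydration on a dish, cost1 mutant control, and cost1 after the same dehydration. The labels name the mutant only as cost1, with no allele, strain background or number of plants per library, and do not describe how control seedlings were handled. Whether the 3 libraries of each group hold plants grown apart is not said, so a p-value here sets a difference against a spread that could be technical.

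Heat shock factors bind DNA as trimers at heat shock elements, inverted repeats of the letters GAA, in front of genes for chaperones and other protective proteins. Class A factors carry an activation motif and switch such genes on, with the HSFA1 factors acting first in heat and HSFA2 being made in response to them, whereas class B factors lack that motif and mostly repress, and class C has a single gene in Arabidopsis. Several family members respond to water deficit through abscisic acid, the main drought hormone, or through DREB2 factors, and HSFA3 is a known target of DREB2A.

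The 250 bases before the annotated start of 4 genes are printed because these genes carry the results that follow: HSFA2, HSFA6B and HSFC1 had the largest rises among the genes with at least 10 counts in every control group, and HSFA7A, a further family gene, fell. The sequences are from RefSeq, build TAIR10.1, 5′ to 3′ on the strand of the gene, at chr2:11135374-11135623, plus strand for HSFA2, chr3:8078539-8078788, plus strand for HSFA6B, chr3:8940816-8941065, plus strand for HSFC1 and chr3:19264891-19265140, plus strand for HSFA7A. Capitals mark a match, on either strand, to one of 6 motifs: the heat shock element in its forms GAANNTTC and TTCNNGAA, the abscisic acid response core ACGTG, the G-box CACGTG, which holds that core on both strands, and the dehydration-responsive element cores ACCGAC and GCCGAC.
HSFA2: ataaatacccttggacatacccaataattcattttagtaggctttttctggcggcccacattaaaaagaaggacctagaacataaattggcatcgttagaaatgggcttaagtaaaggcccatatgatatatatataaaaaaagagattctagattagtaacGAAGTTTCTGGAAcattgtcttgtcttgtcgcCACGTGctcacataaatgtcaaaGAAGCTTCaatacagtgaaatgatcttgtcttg
HSFA6B: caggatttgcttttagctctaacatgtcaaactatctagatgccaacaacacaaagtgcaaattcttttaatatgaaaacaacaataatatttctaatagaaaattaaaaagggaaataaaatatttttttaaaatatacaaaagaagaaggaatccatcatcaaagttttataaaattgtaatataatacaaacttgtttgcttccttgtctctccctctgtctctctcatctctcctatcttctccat
HSFC1: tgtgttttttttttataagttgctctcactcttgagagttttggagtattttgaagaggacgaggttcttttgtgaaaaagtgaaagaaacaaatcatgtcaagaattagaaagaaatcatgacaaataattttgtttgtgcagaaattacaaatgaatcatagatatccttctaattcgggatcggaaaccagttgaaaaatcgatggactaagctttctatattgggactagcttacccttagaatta
HSFA7A: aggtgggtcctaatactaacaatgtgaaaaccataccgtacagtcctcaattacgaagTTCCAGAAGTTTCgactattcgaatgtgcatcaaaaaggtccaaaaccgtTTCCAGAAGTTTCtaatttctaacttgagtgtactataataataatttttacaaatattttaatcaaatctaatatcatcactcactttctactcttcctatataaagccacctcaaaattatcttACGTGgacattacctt
HSFA2 held GAANNTTC with its first base 88 and 33 bases before the start, TTCNNGAA at 83, overlapping the first of these, and a G-box at 56. The HSFA6B and HSFC1 windows held none of the 6 motifs. HSFA7A held TTCNNGAA at 192 and 142, each overlapped by GAANNTTC at 187 and 137, and ACGTG at 16. Among the 10 genes, 2 held GAANNTTC (HSFA2 and HSFA4A), 1 held TTCNNGAA, 1 held ACGTG and the G-box, 2 held GCCGAC (HSFA1A and HSFB2A) and 0 held ACCGAC. Of 27444 promoters of this length, 9.6% held GAANNTTC, 7.7% TTCNNGAA, 22.9% ACGTG, 6.5% the G-box, 2.6% GCCGAC and 4.7% ACCGAC. A match describes the letters and not a bound site.

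COST1, the gene the mutant is named for, had 36.2 to 61.2 expected counts in the 6 cost1 libraries and 148 to 216 in the 6 WT libraries. The expected counts of a library summed to 5884728 to 6223687, and 18809 genes were tested. Cost1 control replicate 2 stood apart from the other control libraries, at −46.3 on a first principal component that placed the others at −80.9 to −77.0 and the dehydrated libraries at 53.6 to 103.1. It lay above the other 5 control libraries in 30.1% of all tested genes and below them in 28.2%. In these bulk libraries fewer cells of a type and less RNA per cell cannot be told apart.

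In control seedlings the means of the 10 genes ran from 0.21 to 6.88 FPKM in WT and from 0.103 to 6.47 FPKM in cost1. Per length, HSFC1 had the highest mean, 6.88 ± 0.869 FPKM (SD, n = 3) in WT and 6.47 ± 1.29 in cost1. The lowest was HSFA6A, at 0.21 ± 0.095 FPKM in WT and 0.103 ± 0.179 in cost1. Ordered by mean, 7 of the 9 neighbouring pairs overlapped in WT control and all 9 in cost1 control. The only gaps in WT control lay between HSFA3 at 3.32 FPKM and HSFA6B at 1.08, and between HSFA2 at 0.727 and HSFA6A.

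After 6 h of dehydration 8 of the 10 genes were called higher in WT and 8 in cost1, and none lower, by edgeR's quasi-likelihood test at a Benjamini-Hochberg adjusted p under 0.05. Across all genes tested 45.5% were called in WT, 24.9% higher and 20.6% lower, and 51% in cost1, 26.4% higher and 24.5% lower. The higher share of all calls was 54.7% in WT and 51.9% in cost1, and without scaling beyond the library total it was 42.8% and 40.9%, a setting under which 7 of the 10 genes were called in WT and 8 in cost1. HSFA2, HSFA4A, HSFA6A, HSFA6B, HSFB2A, HSFB2B and HSFC1 were called in both genotypes, HSFA1A in WT, HSFA8 in cost1 and HSFA3 in neither. The median log2 change of the 10 was 2.19 in WT and 2.35 in cost1, against −0.02 and −0.03 over all genes. The 10 genes were chosen with earlier results of these data known, so their counts of calls and this median can be partly built in. The 8 other tested family genes had a median of 0.23 in WT and 0.19 in cost1. HSFA2, HSFA6A and HSFA6B passed the filter on low counts through their dehydrated libraries, which selects for a rise, so their calls are partly built in. Of the 7 genes that passed in control libraries as well, 5 were called higher in each genotype, with a median of 0.9 in WT and 1.12 in cost1.

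**Figure D1:**
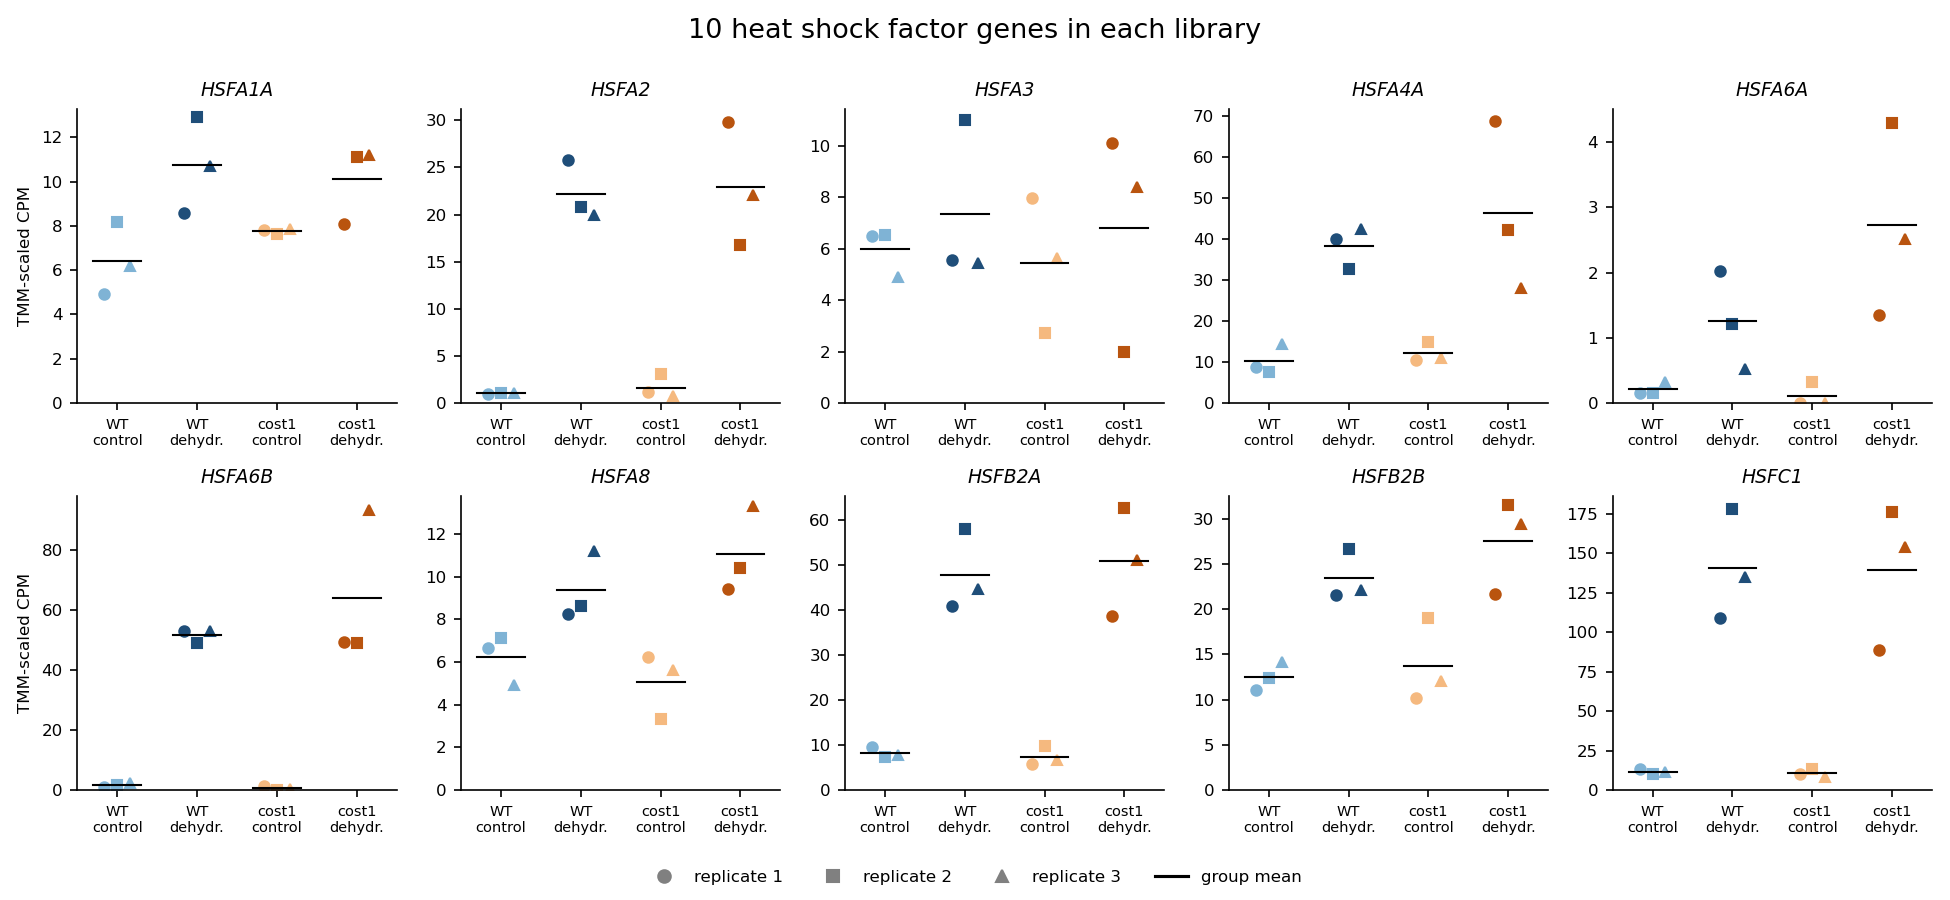
Level of each of the 10 heat shock factor genes in the 12 libraries, in CPM (counts scaled to a common library total, with TMM factors), with a panel per gene and its own axis from 0. Points are libraries, their shape gives the replicate number, and bars are group means of 3 libraries. In HSFA2, HSFA4A, HSFA6B, HSFB2A and HSFC1 the dehydrated libraries lie far above the control ones, while HSFA3 overlaps.

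The levels by library below are CPM after TMM scaling, in the order of replicates 1, 2 and 3, and changes are dehydrated minus control on the log2 scale with a standard error. The plot of the genes by library shows the same values. In both genotypes the dehydrated libraries of 9 of the 10 genes lay above all control libraries of that genotype, against 30.6% of all genes in WT and 28.4% in cost1. These 9 include HSFA2, HSFA6A and HSFA6B, which passed the filter on low counts through dehydrated libraries, so part of this count is built in.

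HSFA6B, a class A factor known to act downstream of abscisic acid, had the largest change of the genes with more than a handful of control counts. Its WT libraries were at 0.951, 1.52 and 2.38 CPM in control and at 53.2, 49.1 and 53.2 CPM when dehydrated. Its cost1 libraries were at 1.28, 0.159 and 0.444 CPM in control and at 49.5, 49.1 and 93.6 CPM when dehydrated. The dehydrated libraries lay within 49.1 to 53.2 CPM except cost1 replicate 3, which was above the others. It rose by 4.99 ± 0.39 in WT (31.7-fold, adjusted p = 2.24e-06) and by 6.64 ± 0.44 in cost1 (99.8-fold, adjusted p = 7.08e-07). The cost1 value rests on 12 counts in the 3 control libraries against 1126. It was 7.61 without cost1 control replicate 1 and 6.21 without cost1 control replicate 2, the lowest control library.

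HSFA2, the heat-inducible factor that prolongs acquired thermotolerance, was rare in control and clearly present after dehydration. WT seedlings had 0.951, 1.06 and 1.11 CPM in control and 25.8, 20.8 and 20.0 CPM when dehydrated. The mutant had 1.12, 3.03 and 0.74 CPM in control and 29.8, 16.8 and 22.1 CPM when dehydrated. The 2 genotypes spanned overlapping ranges in each condition, and the highest control value was that of cost1 control replicate 2. It rose by 4.39 ± 0.39 in WT (20.9-fold, adjusted p = 5.8e-06) and by 3.81 ± 0.37 in cost1 (14.1-fold, adjusted p = 8.65e-06). Without cost1 control replicate 2 the cost1 change was 4.61.

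HSFA6A, a close relative of HSFA6B, was the rarest of the 10. In WT it was at 0.158, 0.152 and 0.317 CPM in control and at 2.02, 1.21 and 0.525 CPM when dehydrated. Among cost1 libraries it was at 0, 0.319 and 0 CPM in control and at 1.35, 4.30 and 2.52 CPM when dehydrated. Every dehydrated library lay above every control library, and the dehydrated libraries of the genotypes overlapped. The WT libraries held 22 counts when dehydrated against 4 in control, a rise of 2.48 ± 0.85 (adjusted p = 0.0313). That call was lost without WT control replicate 1 (adjusted p = 0.0892), WT control replicate 2 (0.095), WT control replicate 3 (0.0556), WT dehydrated replicate 1 (0.125) or WT dehydrated replicate 2 (0.0593). The cost1 libraries held 47 counts against 2, a ratio of 25.9 with a 95% interval of 6.79 to 221 that covers counting error only, and the gene was called at adjusted p = 0.00124. Without cost1 control replicate 2, which held both control counts, the adjusted p was 0.00133.

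HSFA4A, a factor tied to the response to reactive oxygen and salt and a substrate of mitogen-activated protein kinases, was already present in control. Its WT libraries were at 8.87, 7.58 and 14.4 CPM in control and at 39.9, 32.7 and 42.5 CPM when dehydrated. In cost1 it was at 10.5, 14.8 and 11 CPM in control and at 68.8, 42.3 and 28.0 CPM when dehydrated. The cost1 dehydrated libraries were spread more widely than those of WT and reached both above and below them. It rose by 1.9 ± 0.32 in WT (3.73-fold, adjusted p = 0.000554) and by 1.94 ± 0.31 in cost1 (3.83-fold, adjusted p = 0.000395).

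Of the other class A genes, HSFA1A was called in WT, HSFA8 in cost1 and HSFA3 in neither. HSFA1A, 1 of the HSFA1 factors that act first in heat, was at 4.91, 8.19 and 6.18 CPM in WT control and at 8.59, 12.9 and 10.7 CPM in WT dehydrated. Its cost1 libraries were at 7.81, 7.64 and 7.84 CPM in control and at 8.08, 11.1 and 11.2 CPM when dehydrated. The conditions nearly met: the highest WT control library was at 8.19 and the lowest WT dehydrated one at 8.59, and in cost1 these were at 7.84 and 8.08. HSFA1A rose by 0.74 ± 0.23 in WT (1.66-fold, adjusted p = 0.0192), and in cost1 the change was 0.38 ± 0.22 (adjusted p = 0.17). The WT call was lost without WT control replicate 1 (adjusted p = 0.0784), WT control replicate 3 (0.0584) or WT dehydrated replicate 2 (0.0772). It was lost as well without scaling beyond the library total (adjusted p = 0.0515). The expected count of HSFA1A was fractional in all 12 libraries, as happens when reads are shared between loci, and its 30.8 to 74.6 counts are uncertain to that extent.

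HSFA8, a factor whose entry into the nucleus is linked to its redox state, was at 6.65, 7.12 and 4.91 CPM in WT control and at 8.25, 8.61 and 11.2 CPM in WT dehydrated. The mutant had 6.22, 3.34 and 5.62 CPM in control and 9.42, 10.4 and 13.3 CPM when dehydrated. Control and dehydrated libraries did not overlap in either genotype, and the lowest control value was that of cost1 control replicate 2. HSFA8 rose by 1.12 ± 0.25 in cost1 (2.17-fold, adjusted p = 0.00335). In WT the change was 0.58 ± 0.25 with a 95% interval of 0.04 to 1.13 and was not called (adjusted p = 0.0768). Without cost1 control replicate 2, which enters the estimate of spread, the WT change was 0.59 and was called (adjusted p = 0.042), and the cost1 change was 0.9 (adjusted p = 0.0101).

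HSFA3, the target of DREB2A, was at 6.50, 6.52 and 4.91 CPM in WT control and at 5.56, 11 and 5.43 CPM in WT dehydrated. Among cost1 libraries it was at 7.97, 2.71 and 5.62 CPM in control and at 10.1, 1.97 and 8.39 CPM when dehydrated. The conditions overlapped in both genotypes, and replicate 2 of cost1 was the lowest in control and in dehydration alike. The change was 0.29 ± 0.5 in WT (95% interval −0.8 to 1.39, adjusted p = 0.662) and 0.33 ± 0.51 in cost1 (−0.78 to 1.44, adjusted p = 0.608). An opposite-strand gene, AT5G03710, shares 486 bases with HSFA3 and had 0 to 3.01 counts in a library.

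Both class B genes rose. HSFB2A, a repressor-type factor also known from gametophyte development, was at 9.51, 7.43 and 7.76 CPM in WT control and at 40.8, 58.0 and 44.6 CPM in WT dehydrated. In cost1 it was at 5.74, 9.87 and 6.66 CPM in control and at 38.7, 62.5 and 51.0 CPM when dehydrated. Replicate 2 was the highest dehydrated library of each genotype. HSFB2A rose by 2.54 ± 0.24 in WT (5.8-fold, adjusted p = 7.54e-06) and by 2.77 ± 0.24 in cost1 (6.82-fold, adjusted p = 4.27e-06).

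HSFB2B, which together with HSFB1 represses heat-inducible factor genes, had the second highest mean FPKM of the 10 in control. WT seedlings had 11.1, 12.4 and 14.1 CPM in control and 21.6, 26.7 and 22.1 CPM when dehydrated. Its cost1 libraries were at 10.2, 19.0 and 12 CPM in control and at 21.7, 31.5 and 29.4 CPM when dehydrated. Cost1 control replicate 2 lay between the other control libraries and the dehydrated ones. HSFB2B rose by 0.9 ± 0.23 in WT (1.87-fold, adjusted p = 0.00656) and by 1 ± 0.22 in cost1 (2.01-fold, adjusted p = 0.00292), and without cost1 control replicate 2 by 1.31 in cost1. The gene shares 308 bases with AT4G11670 on the opposite strand, which had 138 to 204 counts, and no source used here gives the strand setting of the counting.

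HSFC1 had the highest level of the 10 after dehydration. In WT it was at 13.2, 9.85 and 11.1 CPM in control and at 109, 178 and 135 CPM when dehydrated. The mutant had 10.4, 13.4 and 8.29 CPM in control and 88.7, 176 and 154 CPM when dehydrated. Every dehydrated library was at 88.7 CPM or above and every control library at 13.4 CPM or below, and replicate 1 was the lowest dehydrated one in each genotype. HSFC1 rose by 3.63 ± 0.29 in WT (12.4-fold, adjusted p = 2.52e-06) and by 3.71 ± 0.29 in cost1 (13.1-fold, adjusted p = 2e-06). A long non-coding RNA, AT3G24518, covers 1808 bases of HSFC1 on the opposite strand. It is absent from every table used here, so whether it was counted is not known, and without a stated strand setting the reads of the pair cannot be told apart.

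**Figure D2:**
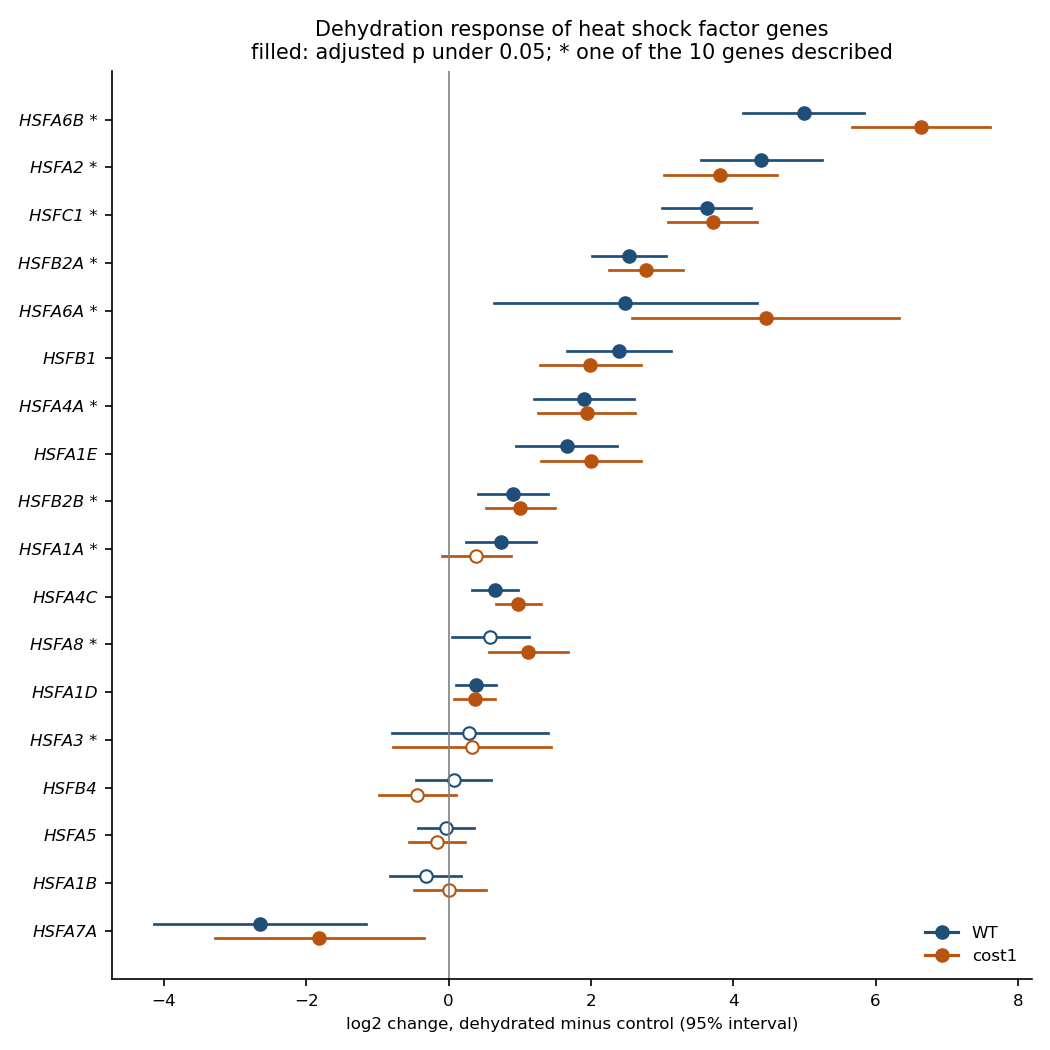
Log2 change after dehydration, dehydrated minus control, of the 18 tested heat shock factor genes in WT (blue) and cost1 (orange), with 95% intervals. Filled points have an adjusted p under 0.05, and a star marks the 10 genes described. HSFA6B, HSFA2 and HSFC1 lie at 3.63 or more in both genotypes and HSFA7A alone lies below 0 with filled points.

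The summed FPKM of the 10 genes was 34.1, 35.0 and 36.7 in WT control and 170.5, 214.6 and 180.0 in WT dehydrated. In cost1 it was 34.4, 38.4 and 32.9 in control and 173.3, 207.3 and 230.4 when dehydrated. HSFC1 made up 19.6 ± 2.9% of this sum in WT control and 40.5 ± 5.0% in WT dehydrated, and 18.3 ± 2.2% and 36.9 ± 7.9% in cost1. These sums and shares are descriptions without a test. HSFA6B was in the eighth place in WT control and in the second place in WT dehydrated, with 31.1 ± 1.4 FPKM, behind HSFC1 with 77.0 ± 18.9. HSFB2A followed with 25.8 ± 4.94 FPKM, HSFA4A with 15.4 ± 1.92 and HSFA2 with 13.5 ± 1.99. HSFA6A stayed lowest, with 1.14 ± 0.696 FPKM. In WT dehydrated 4 of the 9 neighbouring pairs overlapped, and in cost1 dehydrated 8 did, where HSFC1 at 76.1 ± 23.0 FPKM and HSFA6B at 38.7 ± 16.3 no longer separated.

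**Figure D3:**
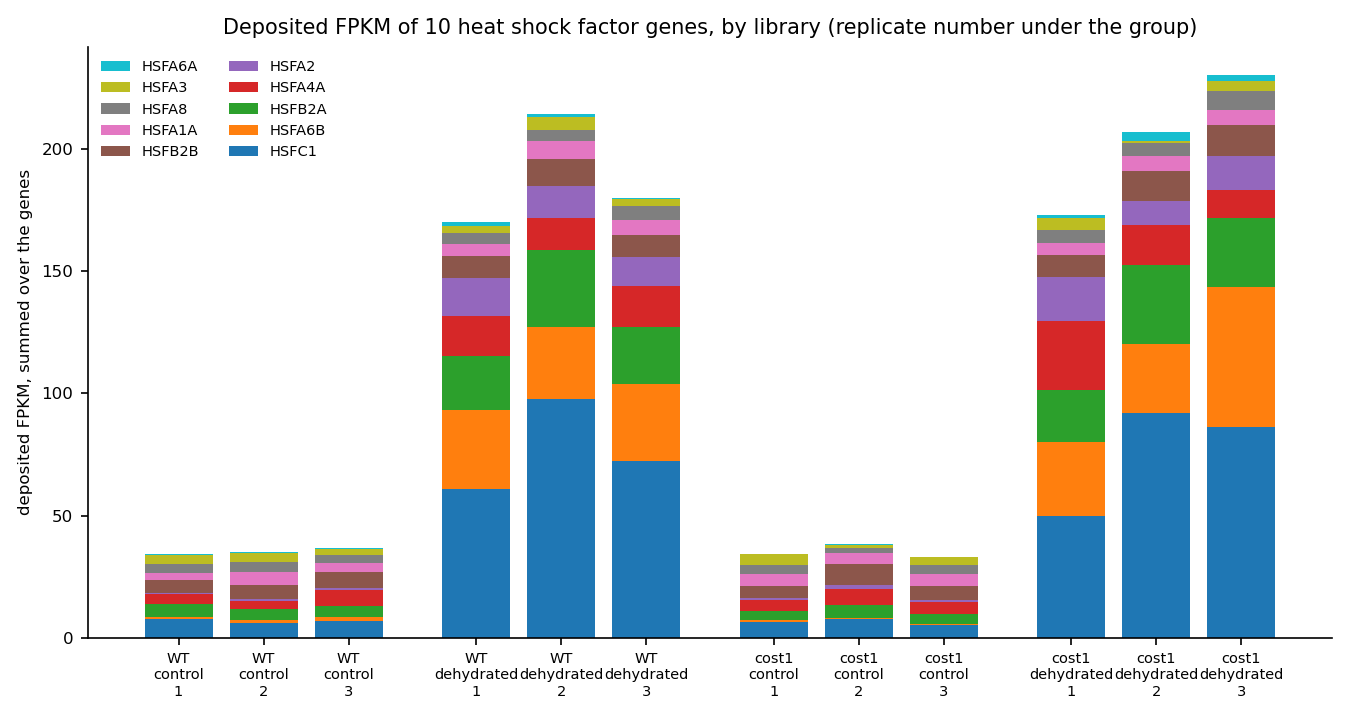
Deposited FPKM of the 10 heat shock factor genes stacked by library, with the group and replicate number under each bar. The control bars end between 32.9 and 38.4 FPKM and the dehydrated bars between 170.5 and 230.4, with HSFC1, HSFA6B and HSFB2A filling most of each dehydrated bar.

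The mutant and the wild type were then compared within each condition, and their responses against each other, which addresses whether cost1 alters these genes. None of the 10 genes was called in control (0.0213% of all genes were called), under dehydration (0.0372%) or for the interaction (0%), in which the WT response is subtracted from the cost1 response. At an unadjusted p under 0.05 there were 0 of the 10 genes in control, 0 under dehydration and 1 for the interaction, HSFA6B, against 893, 1637 and 690 of all genes. DESeq2 called none of the 10 in these comparisons and 1 gene in all for the interaction. The WT and cost1 libraries of all 10 genes overlapped in control, where 7.77% of all genes were separated with cost1 higher and 7.38% with cost1 lower, and under dehydration, where it was 4.92% and 5.73%.

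The cost1 minus WT differences of the 10 genes ran from −1.35 to 0.62 in control and from −0.1 to 1.1 under dehydration. HSFA6B had the lowest control difference, −1.35, at an unadjusted p of 0.0582 and an adjusted p of 0.965. Its interaction was 1.65 ± 0.7, with a 95% interval of 0.13 to 3.18, at an unadjusted p of 0.0361 and an adjusted p of 0.999. Without single libraries the control difference ran from −2.32 to −0.92 and the interaction from 1.21 to 2.63, both farthest from 0 without cost1 control replicate 1 and nearest to 0 without cost1 control replicate 2. The control level behind both is 31 counts in the 3 WT libraries and 12 in the 3 cost1 libraries. HSFA6A had the highest difference under dehydration, 1.1 (adjusted p = 0.624), and the highest interaction, 1.98 ± 1.45, with an interval of −1.19 to 5.14. Its difference under dehydration was 0.61 without cost1 dehydrated replicate 2, and its interaction was 4.56 without cost1 control replicate 2 and 1.44 to 2.5 without any other library. HSFC1 was estimated more closely, with an interaction of 0.08 ± 0.38 and an interval of −0.75 to 0.91. HSFB2B had 0.1 ± 0.32, with an interval of −0.58 to 0.79. Over the 10 genes the intervals reached from −3.65 to 1.88 in control and from −1.19 to 2.38 under dehydration, so differences of these sizes could pass unseen in the rarest genes.

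**Figure D4:**
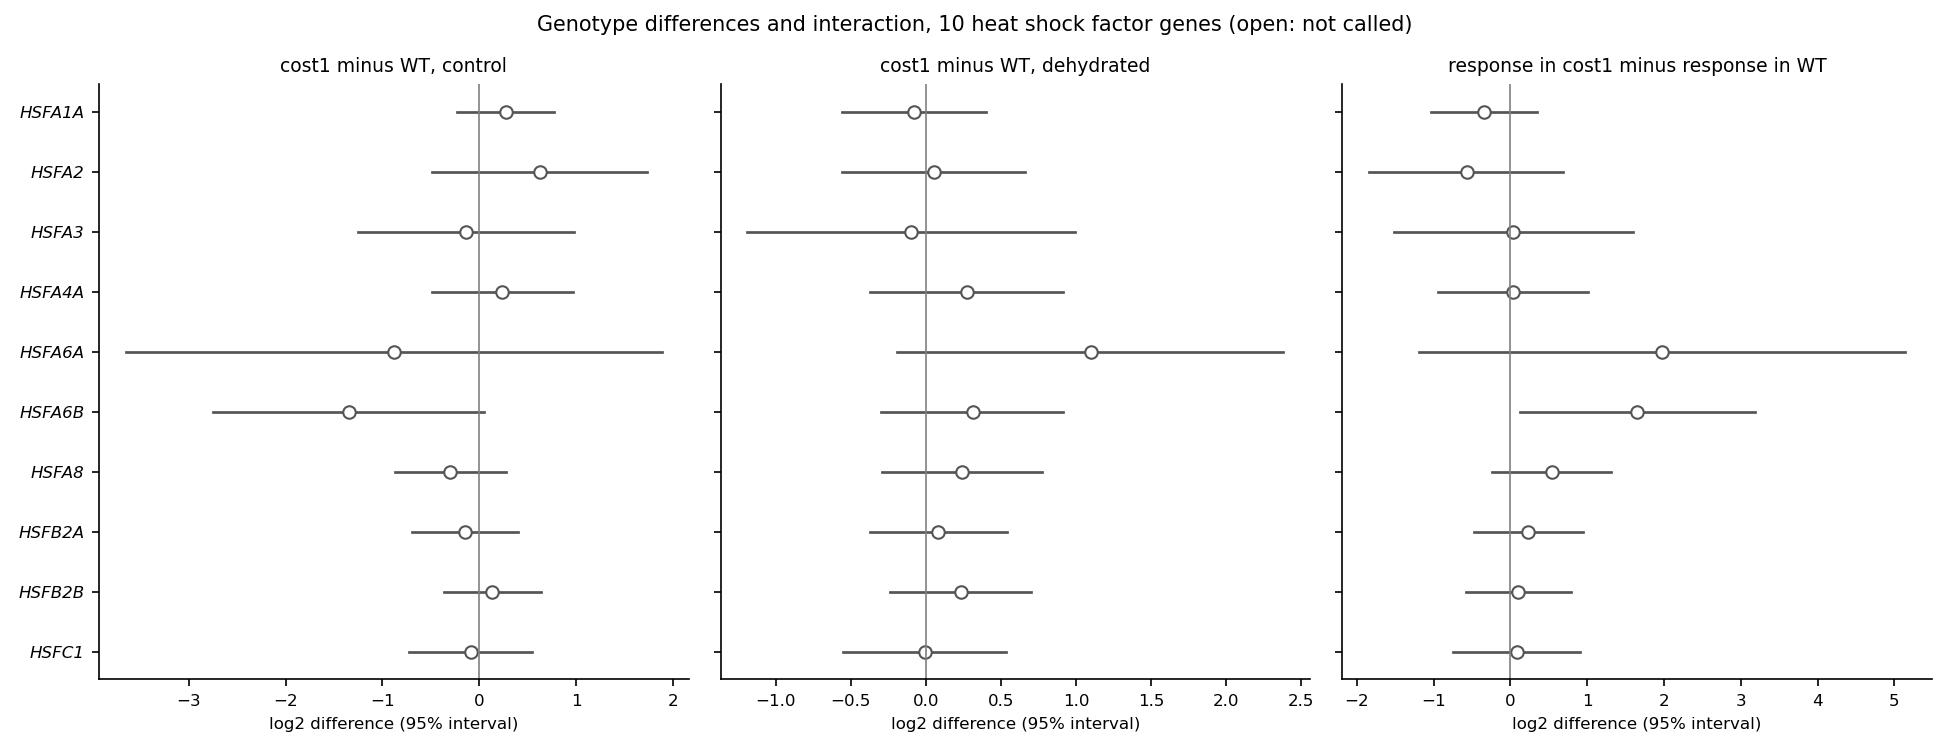
Log2 differences of the 10 heat shock factor genes with 95% intervals: cost1 minus WT in control, cost1 minus WT under dehydration, and the interaction, cost1 response minus WT response, each panel on its own axis. All points are open, since none was called, and only the interaction interval of HSFA6B, 0.13 to 3.18, leaves out 0.

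The family's other 11 loci were counted as a list. Of these, 8 were tested and HSFA7B, HSFA9 and HSFB3 were too low. In each genotype 4 rose, 1 fell and 3 were not called, with a median of 0.23 in WT and 0.19 in cost1. Together with the 10 genes, 12 of 18 tested family genes were called higher and 1 lower in each genotype. Of all genes, 24.9% were called higher and 20.6% lower in WT, and 26.4% and 24.5% in cost1. The 12 include HSFA2, HSFA6A and HSFA6B, which passed the filter on low counts through dehydrated libraries. HSFB1, the repressor that works with HSFB2B, rose by 2.39 ± 0.34 in WT (adjusted p = 0.000155) and by 1.99 ± 0.32 in cost1 (adjusted p = 0.000404). HSFA1E, an HSFA1 factor, rose by 1.66 ± 0.33 (adjusted p = 0.00157) and by 2 ± 0.32 (adjusted p = 0.000366). HSFA4C, the relative of HSFA4A, rose by 0.65 ± 0.15 (adjusted p = 0.00347) and by 0.98 ± 0.15 (adjusted p = 0.000214).

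HSFA1D, another HSFA1 factor, was at 12 to 14.4 CPM in WT control and at 16.5 to 18.3 CPM in WT dehydrated, and at 11.3 to 13.9 and 16.3 to 17.2 CPM in cost1. It rose by 0.39 ± 0.13 in WT (adjusted p = 0.031) and by 0.37 ± 0.13 in cost1 (adjusted p = 0.0365). Its call was lost under 9 of 21 alternatives in WT and 14 of 21 in cost1. Among them were leaving out WT control replicate 1 (0.113), WT control replicate 2 (0.0708), WT dehydrated replicate 2 (0.0792) or WT dehydrated replicate 3 (0.0697) for the WT change. For the cost1 change they were WT control replicate 2 (0.0519), cost1 control replicate 1 (0.139), cost1 control replicate 2 (0.0501), cost1 dehydrated replicate 1 (0.0518), cost1 dehydrated replicate 2 (0.09) and cost1 dehydrated replicate 3 (0.0667). The changes of HSFA1B, HSFA5 and HSFB4 were −0.32, −0.04 and 0.07 in WT and 0.01, −0.17 and −0.44 in cost1, none of them called. Without scaling beyond the total the change of HSFB4 was −0.08 in WT and that of HSFA1B −0.14 in cost1, and with upper quartile scaling HSFB4 was called lower in cost1 (−0.65, adjusted p = 0.044).

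HSFA7A, a class A factor known to be induced by heat, was the family gene that fell. The heat shock element letters printed above are not particular to HSFA7A. Both forms were also held by HSFA2, which rose, and by HSFA7B, which was too low to test. HSFA7A was measured in all 4 groups. Its WT libraries were at 15.5, 13.8 and 13.1 CPM in control and at 0.674, 4.82 and 1.23 CPM when dehydrated. Among cost1 libraries it was at 15.5, 1.75 and 12.4 CPM in control and at 2.52, 2.33 and 3.52 CPM when dehydrated. Every WT dehydrated library lay below every WT control library, while cost1 control replicate 2 lay below all 3 cost1 dehydrated libraries. HSFA7A fell by 2.65 ± 0.68 in WT (adjusted p = 0.00777), and by 3.87 without WT dehydrated replicate 2. In cost1 it fell by 1.82 ± 0.67 (adjusted p = 0.0394), and by 2.3 without cost1 control replicate 2 (adjusted p = 0.0017). The cost1 call was lost under 11 of 21 alternatives. These were the fits on log2(FPKM + 0.1) (adjusted p = 0.137) and log2(FPKM + 1) (0.093), the fit of only the groups compared (0.0715), and 8 that each leave out 1 library. It was lost without any 1 of the 3 WT control libraries (adjusted p = 0.0531 to 0.0537), without cost1 control replicate 1 (0.15) or 3 (0.106), and without cost1 dehydrated replicate 1 (0.083), 2 (0.105) or 3 (0.0682).

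**Figure D5:**
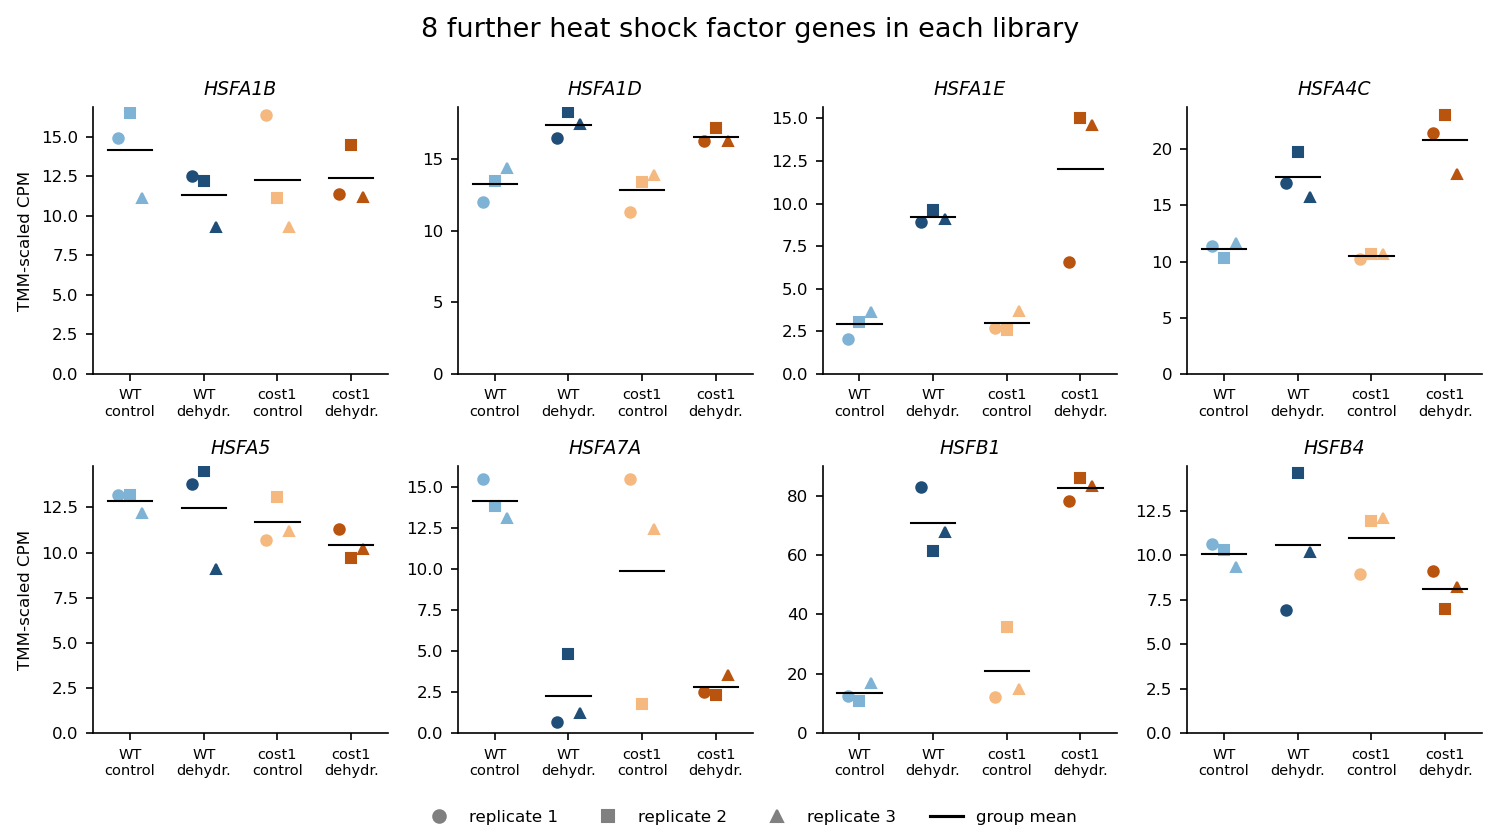
Level of the 8 further tested heat shock factor genes in the 12 libraries, in CPM after TMM scaling, each on its own axis from 0. Points are libraries with the replicate number as shape and bars are group means of 3 libraries. HSFB1, HSFA1E, HSFA4C and HSFA1D are higher in every dehydrated library than in any control library. In HSFA7A cost1 control replicate 2 lies at 1.75, among the dehydrated libraries.

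Cost1 control replicate 2 departed from the other 5 control libraries in 11 of the 18 tested family genes, above them in 7 and below them in 4, beside 58.3% of all tested genes, 30.1% above and 28.2% below. In 4 of the 7 the next control library was close: HSFA6A was at 0.319 against 0.317 CPM, HSFC1 at 13.4 against 13.2, HSFB2A at 9.87 against 9.51 and HSFA4A at 14.8 against 14.4. HSFB1 was at 35.7 CPM there against 10.9 to 17.0 in the other 5, and without this library its cost1 rise was 2.63. HSFA2 was at 3.03 against 0.74 to 1.12, HSFB2B at 19.0 against 10.2 to 14.1, and HSFA7A at 1.75 against 12.4 to 15.5, in each case on the side of the dehydrated libraries. HSFA6B was at 0.159 against 0.444 to 2.38 and HSFA8 at 3.34 against 4.91 to 7.12, in both cases on the side away from the dehydrated libraries. What sets this library apart was not tested.

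Among the 10 genes the levels across the 12 libraries ran closest for HSFB2A and HSFC1. Of 45 pairs, 9 had a Pearson r over 0.9 on log2(CPM + 1), and r ran from −0.18 upwards. These are descriptions over 12 libraries of 4 groups, which share the dehydration contrast. Over all tested genes, the most alike was the glucosyltransferase gene UGT84A3 for HSFB2A (r = 0.996), with HSFC1 next (0.996). It was the cytochrome P450 gene CYP81G1 for HSFC1 (0.998), AT5G13590 for HSFA6B (0.996), the receptor-like kinase gene SERK4 for HSFA2 (0.992), and the kinase gene MKK4 for HSFA4A (0.984). It was the thioredoxin gene TRX5 for HSFB2B (0.979), GLIP1 for HSFA6A (0.967), the aconitase gene ACO1 (AT4G35830) for HSFA8 (0.963), TTN8 for HSFA1A (0.948) and AT3G52210 for HSFA3 (0.925).

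Of 13 tested genes that act upstream of heat shock factors or on their activity, 9 rose in WT and 7 in cost1 and none fell, so 4 and 6 were not called, beside the 24.9% and 26.4% of all genes called higher. DREB2C and JUB1 passed the filter on low counts through dehydrated libraries, which selects for a rise. Of the 11 that passed in control libraries as well, 7 rose in WT and 5 in cost1. NF-YC10, HSBP, HSC70-1 and HSP90.4 were called in neither genotype, and HSP90.2 and HSP90.3 in WT alone. The cost1 count depends on cost1 control replicate 2. Without that library HSP90.2 (0.45, adjusted p = 0.022) and HSP90.3 (0.42, adjusted p = 0.0292) were called higher in cost1, and HSBP lower (−0.38, adjusted p = 0.0342). DREB2A, the activator of HSFA3, rose by 4.94 ± 0.45 in WT (adjusted p = 6.66e-06) and by 4.92 ± 0.45 in cost1 (adjusted p = 6.4e-06), from 3.26 ± 1.09 to 101 ± 60.1 CPM in WT and from 3.2 ± 0.496 to 97.3 ± 32.6 in cost1. HSFA3 itself was not called beside it. JUB1, a NAC factor placed upstream of DREB2A, rose by 4.91 ± 0.38 (adjusted p = 2e-06) and by 4.53 ± 0.35 (adjusted p = 1.71e-06). The bZIP factors of the abscisic acid response ABF3 and ABF2 rose in WT by 3.33 ± 0.35 (adjusted p = 2e-05) and by 2.96 ± 0.32 (adjusted p = 2.13e-05), and in cost1 by 2.98 ± 0.35 (adjusted p = 3.64e-05) and by 2.88 ± 0.31 (adjusted p = 2.29e-05).

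Of 14 listed target genes other than small heat shock proteins, 13 were tested and 7 rose in each genotype, with none lower. Of all genes 24.9% were called higher in WT and 26.4% in cost1. The targets HSP101, HSP70B, HSA32, ROF1, ROF2 and BAG6 were called in neither genotype. GOLS2 passed the filter through dehydrated libraries, and of the other 12 genes 6 rose in each genotype. GOLS1, a galactinol synthase for protective sugars of the raffinose family, rose by 3.52 ± 0.43 in WT (adjusted p = 5.77e-05) and by 3.44 ± 0.43 in cost1 (adjusted p = 5.86e-05). GOLS2 rose by 6.36 ± 0.81 (adjusted p = 7.45e-05) and by 4.64 ± 0.66 (adjusted p = 0.000153), from 1.14 ± 0.587 CPM in WT control. Cost1 control replicate 2 was above replicates 1 and 3, which were at 1.12 and 3.7 CPM, with a group mean of 7.55 ± 9.0, and without it, a setting added after seeing the data, its cost1 change was 6.26 (adjusted p = 4.2e-06). The chaperone gene HSP70-4 rose by 1.91 ± 0.28 (adjusted p = 0.000191) and by 1.79 ± 0.27 (adjusted p = 0.000272). The co-chaperone gene ATJ3 rose by 0.68 ± 0.12 (adjusted p = 0.000754) and by 0.65 ± 0.12 (adjusted p = 0.000926).

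Of 13 small heat shock protein loci, chaperones that hold unfolding proteins, 9 were tested and 8 rose in each genotype, beside 24.9% of all genes in WT and 26.4% in cost1. Of the 8, 6 passed the filter on low counts through dehydrated libraries, which selects for a rise: HSP17.6A, HSP17.6II, HSP17.4, HSP17.6A-CI, HSP17.6C and AT1G52560. Of the 3 that passed in control libraries as well, 2 rose in each genotype, AT1G07400 and AT5G51440. AT1G07400 rose by 2.84 ± 0.24 in WT (adjusted p = 3.44e-06), from 2.24 ± 0.162 to 16.2 ± 4.29 CPM, and by 3.33 ± 0.24 in cost1 (adjusted p = 1.13e-06), from 2.02 ± 0.242 to 20.5 ± 2.59. AT5G51440 rose by 2 ± 0.35 (adjusted p = 0.000678) and by 2.48 ± 0.36 (adjusted p = 0.000193). HSP17.6II rose by 4.14 ± 0.49 (adjusted p = 4.51e-05) and by 3.19 ± 0.49 (adjusted p = 0.000288), but stayed rare, at 4.02 ± 0.742 CPM in WT dehydrated and 2.54 ± 0.904 in cost1 dehydrated. AT1G52560, the fourth by p, had 25 counts against 2 in WT and 58 against 1 in cost1. No gene of these 3 lists was called in the genotype comparisons or the interaction.

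Markers of shoot, root and seed were read in the same libraries. The summed FPKM of 4 shoot markers was 22961 to 27133 in WT control, 14571 to 19768 in WT dehydrated, 21782 to 31310 in cost1 control and 11908 to 18446 in cost1 dehydrated. Of the 4, 0 were called in WT and 2 lower in cost1. The cost1 calls depend on cost1 control replicate 2, the highest control library for all 4. Without it none was called in cost1 (adjusted p = 0.103 for RBCS1A, 0.173 for LHCB1.3, 0.548 for LHCB2.1 and 0.309 for LHCA1). Of 6 root markers the 2 tested, SCR and SHR, were called lower in both genotypes. Sums over the list were 22.23 to 26.49 FPKM in control and 9.61 to 16.7 after dehydration in WT. In cost1 they were 23.8 to 27.0 and 10.3 to 15.5 FPKM. The other 4 (PIN2, COBL9, PLT1 and RHD6) were at 0 to 5 counts, nearly absent for RNA described as from whole seedlings. How much root RNA the libraries hold was not tested, so the fall of SCR and SHR is not read as a loss of root. Of 4 seed markers 3 were tested, and EM1 and EM6, which passed the filter through dehydrated libraries, rose in both genotypes. CRA1 averaged 2.09 ± 0.706 FPKM without and 0.657 ± 0.485 with dehydration in WT, and 40.6 ± 59.8 and 6.23 ± 3.69 FPKM in cost1, and was not called (adjusted p = 0.484 in WT and 0.0554 in cost1). Its cost1 control libraries were at 3.03, 17.5 and 170 CPM. Without cost1 control replicate 2 CRA1 was called lower in cost1 (−2.95, adjusted p = 0.027). OLEO1, which was not tested, averaged 0.433 and 0.18 FPKM in WT and 3.01 and 0.727 FPKM in cost1. The seed sums were 1.46 to 3.71 and 2.56 to 6.81 FPKM in WT and 2.05 to 116.8 and 8.06 to 35.6 in cost1. The part of these markers in the changes of the heat shock factor genes was not tested.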

How the data were processed

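The deposited tables hold, per the file headers, an expected count for every gene, the estimated number of its reads before scaling, and an FPKM, which the authors scaled to transcript length and depth. STAR 2.4.0, HTSeq 0.6.0 and DESeq2 are named with TAIR10 per the submitters' processing notes, and no source used here gives their roles. Genes absent from a table were read as 0. After rounding, the expected counts were tested in R 4.3.3 with edgeR 4.0.16 (filterByExpr with a minimum count of 10, TMM, quasi-likelihood F tests, 1 fit of 12 libraries with 8 residual degrees of freedom), adjusted by Benjamini-Hochberg over the 18809 genes tested in each of 5 comparisons and called at an adjusted p under 0.05. The script was tested on simulated data. Alternatives were DESeq2 1.42.0, limma 3.58.1 on log2(FPKM + 0.1) and log2(FPKM + 1), other scalings and filters, a replicate block, and leaving out libraries. The ratio interval of HSFA6A is a 95% interval for counting error, since the reads carry no molecular identifiers and need not be separate molecules.

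The 10 genes and the lists were chosen with earlier results of these data known. Named genes were all 10, the family's other called genes, the 4 with the smallest p in the WT response of each further pathway list, and the nearest gene by r. The reported fits hold no term for the replicate number, and the labels do not say that equal numbers were paired. Same-numbered cost1 control and dehydrated libraries deviated together from their group means (r = 0.168, 0.389 and 0.21 for numbers 1, 2 and 3). WT and cost1 dehydrated libraries of number 1 did so as well (r = 0.407). Libraries of unlike number were not compared. As an alternative, a block of replicate numbers was added to the fit, and the cost1 response then kept all 8 calls among the 10 genes. Deposited lengths of all 13459 genes with 1 transcript equalled a TAIR10.1 transcript, and the promoters were read from TAIR10.1 with its own annotation.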

Additional observations from a re-analysis of the deposited data

How the results depend on the processing

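Under 21 alternatives the genes called among the 10 numbered 6 to 9 in WT and 7 to 8 in cost1 (8 in the reported fit of each), and 0 in the genotype differences and, over 20 alternatives, the interaction. HSFA2, HSFA4A, HSFA6B, HSFB2A, HSFB2B and HSFC1 were called in both genotypes under all 21, and HSFA8 in cost1. HSFA6A was tested under 20 alternatives and was called in cost1 under all 20. The 7 in cost1 came from the fit of only the groups compared, in which HSFA6A was not tested. Among all genes the WT response had 6766 to 9607 calls (8549 reported) and the cost1 response 7495 to 10632 (9585 reported). The genotype difference in control had 4 calls, 14 with DESeq2, 2 with only its groups in the fit, 1 with the replicate block, 1 without both cost1 replicate 2 libraries (added after seeing the data), and 1 to 7 without single libraries. Under dehydration it had 7 calls, 29 with DESeq2, 13 on log2(FPKM + 1), 0 with only its groups, 4 with the block, and 0 to 8 without single libraries. The interaction had 0 calls, and 1 with DESeq2. Lower counts with fewer libraries come with fewer samples, and the cause of the other moves was not tested.

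Scaling moved the median log2 change of all genes: by −0.147 in WT and −0.152 in cost1 without scaling beyond the total, by −0.172 and −0.208 with upper quartile scaling, by −0.151 and −0.155 on log2(FPKM + 0.1), and by −0.145 and −0.146 on log2(FPKM + 1). The higher share of WT calls was then 42.8%, 40%, 43.9% and 43.1% (54.7% reported), and of cost1 calls 40.9%, 36.8%, 41.9% and 41.6% (51.9% reported). The HSFA1A call in WT was lost under all 4 (adjusted p = 0.0515, 0.0521, 0.0607 and 0.0606). In that order HSFB4 in WT became −0.08, −0.11, −0.14 and −0.12, HSFB4 in cost1 was called lower with upper quartile scaling alone (−0.65, adjusted p = 0.044), and HSFA1B in cost1 −0.14, −0.2, −0.11 and −0.1. HSFA3 in cost1 was −0.04 on log2(FPKM + 0.1). On log2(FPKM + 0.1) and log2(FPKM + 1) the interactions of HSFA3 were −0.09 and −0.02 and of HSFA4A −0.09 and −0.05.

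With the replicate block, HSFA6A in WT lost its call (adjusted p = 0.0539), the HSFA4A interaction was −0.07, and no other call among the 10 genes changed. In comparisons other than the cost1 response, same-numbered libraries had r of −0.196 to 0.407, and whether any numbers mark pairs is not known. HSFC1 under dehydration was 0 (−0.01 reported) with only the groups compared. Without both cost1 replicate 2 libraries the control differences were −0.17 for HSFA2, 0.19 for HSFA3 and −0.17 for HSFB2B, those under dehydration 0.33 for HSFA3 and −0.1 for HSFB2A, the HSFA2 interaction 0.39 and the cost1 change of HSFA1B −0.16.

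None of the values whose sign changed without a single library was called. The ranges in WT were −0.12 to 0.47 for HSFA3, −0.16 to 0.14 for HSFA5 and −0.24 to 0.3 for HSFB4, and in cost1 −0.06 to 0.76 for HSFA3 and −0.16 to 0.27 for HSFA1B. Genotype differences in control ran from −0.17 to 0.98 for HSFA2, −0.51 to 0.18 for HSFA3, −0.41 to 0 for HSFB2A, −0.18 to 0.3 for HSFB2B and −0.29 to 0.06 for HSFC1. Under dehydration they ran from −0.22 to 0.07 for HSFA1A, −0.19 to 0.23 for HSFA2, −0.49 to 0.33 for HSFA3, −0.13 to 0.53 for HSFA4A, −0.08 to 0.46 for HSFA6B, −0.09 to 0.25 for HSFB2A and −0.21 to 0.23 for HSFC1. Interactions ran from −0.93 to 0.21 for HSFA2, −0.35 to 0.47 for HSFA3, −0.36 to 0.3 for HSFA4A, −0.07 to 0.4 for HSFB2B and −0.12 to 0.32 for HSFC1. With 150 instead of 250 bases before the start, 1 of the 10 genes held GAANNTTC, not 2. Depth limits HSFA6A, HSFA2 and HSFA6B most, which had 2 to 31 counts over 3 control libraries.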
